A study of Homo sapiens with 9 samples.

Results

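The comparison set both TBX3 knockdowns together against the control in 501mel, an established human melanoma cell line that still makes pigment-cell proteins. Cells were lipofected with a DsiRNA, a short double-stranded RNA that Dicer cuts into a silencing guide, and their total RNA was taken 24 h later. The control group received the DsiRNA NC1, and the 2 knockdown groups received DsiRNA 13.6 or DsiRNA 13.8, both directed at TBX3. The labels call the 3 libraries of each group biological replicates, so that the comparison used all 9 libraries of the series, 6 knockdown and 3 control. Each DsiRNA carried 50% of the weight in the pooled estimate, and a gene was described as shared where it was called in the pooled comparison and with each DsiRNA alone in 1 direction. By that rule 3300 of the 14731 genes tested were shared, 1714 higher and 1586 lower. All cells of every group are of 1 line and were transfected, a knockdown lowers TBX3 mRNA without removing the gene, and an untransfected group was not analysed here.

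TBX3 encodes a T-box transcription factor that binds DNA and mostly represses its targets, among them cell-cycle inhibitors and adhesion genes. It is known for limb, breast and heart development and for holding off senescence, and it is expressed in many melanomas. In pigment cells melanin is made in melanosomes by the tyrosinase family under the transcription factor MITF, and the melanocortin receptor MC1R, which signals through cAMP, sets the balance between dark eumelanin and red-yellow pheomelanin. The series title ties TBX3 to the pheomelanin side of that balance.

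The libraries held 38105026 to 52272147 counted reads. CPM, the unit of every level here, divides reads by the library total after TMM scaling and expresses them for 1000000 reads. Changes are the pooled log2 fold change ± SE. Genes were called with edgeR (quasi-likelihood fit) where the Benjamini-Hochberg adjusted p over all genes tested was under 0.05, and "rose" and "fell" refer to genes called with each DsiRNA unless another comparison is named. Both single comparisons share the 3 control libraries, so that a chance deviation of the controls moves both the same way. Pearson correlations across genes, which are not independent replicates, were 0.995 to 0.9984 between libraries of a group and 0.9716 to 0.9837 between groups on the log2(CPM + 1) scale. Where the separate cultures behind the libraries are not described further, p-values measure the spread between these libraries, which may in part be technical.

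TBX3 itself was lower in every knockdown library. Its level was 88.6, 83.8 and 84.0 CPM in the controls, 46.4, 41.0 and 39.4 CPM with 13.6, and 36.1, 33.7 and 36.2 CPM with 13.8. All 6 knockdown libraries lay below all 3 controls. The pooled fall was 1.15 ± 0.06 on the log2 scale, which leaves 45.2% of the control level (adjusted p = 1.04e-08, edgeR). Of the 8 T-box genes tested, TBX15, a regulator of skeletal and fat development, was the other shared change. It rose from 0.37, 0.49 and 0.37 CPM to between 0.88 and 1.40 CPM in the knockdowns (1.48 ± 0.25), on 15 to 67 reads a library. TBX2, the closest relative of TBX3, was not called in the pooled comparison (−0.17 ± 0.07, adjusted p = 0.0566, edgeR), with values of −0.51 for 13.6 and 0.18 for 13.8. In bulk RNA, fewer cells of a kind and less RNA per cell cannot be told apart, which holds for every value that follows.

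A large part of the transcriptome differed from control. The pooled comparison called 7398 genes, 50.2% of those tested, with 3437 higher (23.3%) and 3961 lower (26.9%). Agreement between the reagents was narrower: the 1714 shared rises are 11.6% of the genes tested and the 1586 shared falls 10.8%. Another 1327 genes (9.01%) were called with each DsiRNA in opposite directions, 719 of them higher and 608 lower with 13.6. The 2 reagents differed from each other in 8995 genes, 61.1% of those tested. All 6 knockdown libraries lay above all 3 controls in 1939 genes (13.2%) and below them in 1880 genes (12.8%). Of the shared changes 1630 rises and 1488 falls had this complete separation.

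Most shared changes were small. The median pooled change was 0.61 on the log2 scale among shared rises and −0.55 among shared falls, against −0.02 over all genes tested. At least 2-fold with each DsiRNA were 251 rises and 59 falls. The median gap between the DsiRNAs over the 3300 shared genes was 0.23, and 1689 of them had a called gap. At the edge of the rule stood DCAF17, at 0.19 with 13.6 and 0.18 with 13.8, and RRAS2, at 0.25 and 0.19, both just inside. RILPL2, at 0.26 and 0.26, and MTFP1, at −0.30 and −0.30, lay just outside. The shared call of DCAF17 was lost without each of the 9 libraries in turn (0.16 to 0.21), and that of RRAS2 without each but control replicate 3 (0.19 to 0.24).

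**Figure D1:**
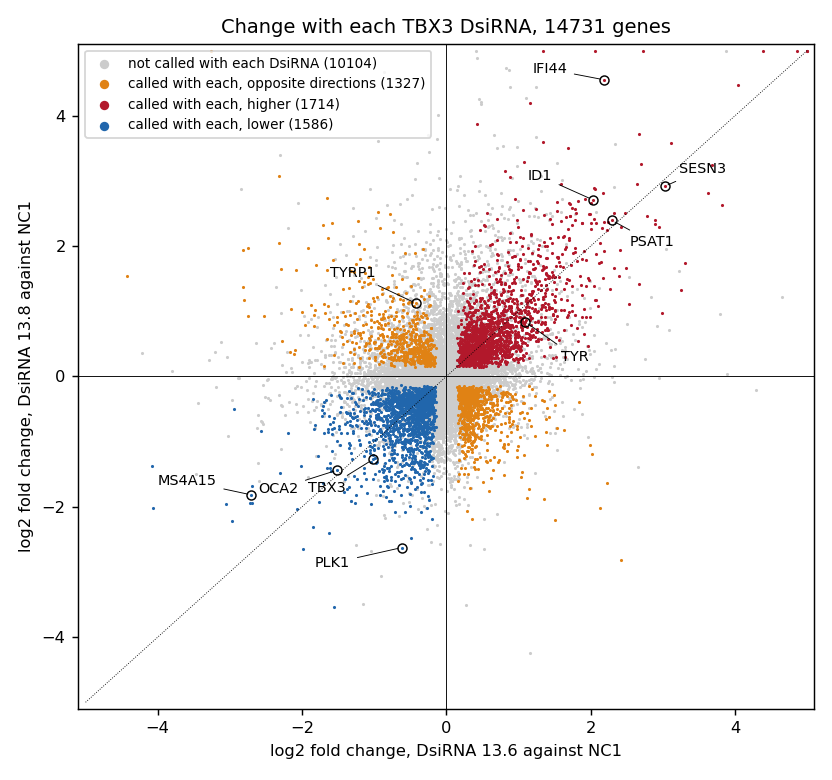
Log2 fold change of each of the 14731 genes tested with DsiRNA 13.6 (horizontal axis) and DsiRNA 13.8 (vertical axis) against the same 3 controls; values beyond 5 are drawn at the edge, and the dotted line marks equal change. Red and blue points are the 1714 shared rises and 1586 shared falls, orange points the 1327 genes called in opposite directions, and SESN3, PSAT1, OCA2 and TBX3 lie near the line of equal change while PLK1 and IFI44 lie well off it.

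The promoters of a few members are shown first, from 3 groups of genes known to share a promoter element: interferon-stimulated, mitotic and pigment genes. They are the RefSeq windows of GRCh38.p14 from 250 bases before to 50 bases after a gene's start, printed along the gene's strand, and the first window listed was taken for a gene with several. Such a window was found for 11409 of the 14731 genes tested. Capitals mark the letters of the motif named, found on either strand. The interferon-stimulated response element, bound by interferon regulatory factors, was searched by its core GAAANNGAA. IFIT1 (chr10:89392373-89392672, plus strand) and IFIT3 (chr10:89327747-89328046, plus strand) hold it as the reverse complement, and DDX60 (chr4:168318703-168319002, minus strand) along the gene, each with 2 matches.
IFIT1: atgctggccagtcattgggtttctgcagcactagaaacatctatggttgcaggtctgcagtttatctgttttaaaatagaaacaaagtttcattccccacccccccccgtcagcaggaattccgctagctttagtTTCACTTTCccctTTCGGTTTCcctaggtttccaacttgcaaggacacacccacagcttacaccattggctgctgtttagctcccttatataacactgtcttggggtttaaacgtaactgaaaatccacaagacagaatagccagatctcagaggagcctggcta
IFIT3: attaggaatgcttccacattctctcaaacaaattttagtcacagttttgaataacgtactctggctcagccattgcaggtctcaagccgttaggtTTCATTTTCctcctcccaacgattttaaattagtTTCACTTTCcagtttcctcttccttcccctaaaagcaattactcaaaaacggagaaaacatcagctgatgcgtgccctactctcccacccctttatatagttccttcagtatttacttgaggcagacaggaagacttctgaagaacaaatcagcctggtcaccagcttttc
DDX60: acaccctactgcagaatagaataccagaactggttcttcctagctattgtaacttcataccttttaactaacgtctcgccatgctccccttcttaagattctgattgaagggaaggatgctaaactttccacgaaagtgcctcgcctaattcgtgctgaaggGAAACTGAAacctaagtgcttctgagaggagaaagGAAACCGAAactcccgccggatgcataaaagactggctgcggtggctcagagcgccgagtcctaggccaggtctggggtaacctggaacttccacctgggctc

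The cell cycle homology region, through which the DREAM complex holds mitotic genes down outside division, was searched as TTTGAA. PLK1 (chr16:23678639-23678938, plus strand) and PRC1 (chr15:90994486-90994785, minus strand) each hold 1 match, 29 and 20 bases before the start.
PLK1: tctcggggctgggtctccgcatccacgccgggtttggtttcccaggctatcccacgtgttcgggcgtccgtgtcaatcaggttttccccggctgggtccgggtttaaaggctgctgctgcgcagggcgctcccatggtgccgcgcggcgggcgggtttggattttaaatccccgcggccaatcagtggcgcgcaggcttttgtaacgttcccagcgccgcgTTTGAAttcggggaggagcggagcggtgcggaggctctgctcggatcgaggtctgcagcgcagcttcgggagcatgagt
PRC1: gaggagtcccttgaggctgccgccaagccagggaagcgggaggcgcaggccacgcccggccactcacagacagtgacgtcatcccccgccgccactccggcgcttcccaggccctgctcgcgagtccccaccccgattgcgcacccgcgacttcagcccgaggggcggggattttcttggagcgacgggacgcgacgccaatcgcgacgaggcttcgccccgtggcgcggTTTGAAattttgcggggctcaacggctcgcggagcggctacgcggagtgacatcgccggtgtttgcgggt

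The core of the M-box, an E-box through which MITF binds pigment genes, was searched as CATGTG. TYR (chr11:89177625-89177924, plus strand), which rose, holds it 2 times, and OCA2 (chr15:28099266-28099565, minus strand), which fell, holds it 1 time.
TYR: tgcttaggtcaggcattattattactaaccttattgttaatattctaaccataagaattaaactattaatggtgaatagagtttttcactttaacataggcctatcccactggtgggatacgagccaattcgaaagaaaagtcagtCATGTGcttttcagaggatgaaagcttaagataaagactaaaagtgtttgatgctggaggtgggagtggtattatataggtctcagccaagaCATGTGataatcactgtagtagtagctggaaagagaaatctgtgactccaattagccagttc
OCA2: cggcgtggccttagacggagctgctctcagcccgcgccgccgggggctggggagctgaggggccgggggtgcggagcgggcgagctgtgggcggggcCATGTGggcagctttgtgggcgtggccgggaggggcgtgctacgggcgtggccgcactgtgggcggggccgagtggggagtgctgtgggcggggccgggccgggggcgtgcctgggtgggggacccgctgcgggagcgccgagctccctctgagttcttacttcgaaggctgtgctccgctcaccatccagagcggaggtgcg

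The share of promoters with each motif was high over the whole list. For the interferon core, TTTGAA and the E2F site the members that changed had close to the same share. The interferon core was in 29 of the 42 interferon-stimulated genes with a window, 69.0%, and in 20 of the 28 of them that rose, 71.4%, against 8.29% of all 27305 promoters and 6.58% of those of genes tested. Both members that fell hold it as well. TTTGAA was in 35 of the 53 G2 and M-phase genes with a window, 66.0%, and in 24 of the 38 that fell, 63.2%, against 15.4% of all promoters and 10.1% of those of genes tested. The E2F site TTTCCCGC was in 13 of 47 S-phase genes, 27.7%, and in 9 of the 35 that fell, 25.7%, against 1.66% of all promoters. CATGTG was in 9 of 26 melanin and melanosome genes, 34.6%, against 11.2% of all promoters. It was in 3 of the 5 with a window that fell and in 1 of the 4 that rose, too few to compare. Over all shared genes the interferon core was in 7.49% of rises, TTTGAA in 11.5% of falls and TTTCCCGC in 4.54% of falls, the last against 2.55% of genes tested. The T-box half-site AGGTGTGA, the DNA word that T-box proteins bind, was in 0.654% of shared rises and 0.955% of shared falls, against 0.701% of genes tested. A match is a run of letters, not a measured binding site.

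The rises that were largest with both reagents took in metabolic, interferon, developmental and adhesion genes. They were ranked by the smaller of the 2 single changes, taking only genes that averaged 5 CPM or more and whose groups were completely separated, so that their size and separation are a description. SESN3, a sestrin that restrains growth signalling under stress, stood at 9.76, 10.8 and 8.71 CPM in the controls. It reached 80.9, 78.5 and 79.1 CPM with 13.6 and 76.5, 67.9 and 76.7 CPM with 13.8, a pooled rise of 2.97 ± 0.08. The 2 reagents gave nearly the same level, with a gap of 0.11 (adjusted p = 0.23, edgeR).

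GPD1L, related to the dehydrogenase that links sugar and lipid metabolism, rose by 2.62 ± 0.09. Its level went from 5.26, 7.05 and 6.72 CPM to 42.4, 44.2 and 44.1 CPM with 13.6 and to 36.8, 34.4 and 33.4 CPM with 13.8. PSAT1, an aminotransferase of serine synthesis, rose by 2.34 ± 0.06 from a tight control range of 24.9 to 26.5 CPM. Its knockdown libraries lay at 122, 132 and 128 CPM with 13.6 and at 134, 137.5 and 137.5 CPM with 13.8, so that both reagents shifted it by a like amount (gap −0.10, adjusted p = 0.13, edgeR). ENOPH1, an enzyme of the methionine salvage pathway, rose by 1.97 ± 0.07 from 20.04 to 24.5 CPM in the controls to 81.1 to 97.8 CPM in the 6 knockdown libraries. COL9A1, a chain of cartilage collagen, rose by 2.41 ± 0.10 from 3.10 to 3.98 CPM to 16.3 to 21.0 CPM.

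ID3 and ID1 encode inhibitors of basic helix-loop-helix transcription factors and are classic targets of BMP signalling. ID3 stood at 46.2, 53.9 and 61.8 CPM in the controls, at 236, 281 and 248 CPM with 13.6 and at 238, 295 and 303 CPM with 13.8. The control libraries spread more than for PSAT1, yet the lowest knockdown library was still far above the highest control (ID3 pooled 2.31 ± 0.11). ID1 rose by 2.37 ± 0.11. ALCAM, a cell adhesion molecule of melanoma progression, rose by 2.23 ± 0.11 from 2.45 to 2.73 CPM to 9.96 to 15.6 CPM, and SLITRK2, an adhesion protein of synapses, by 2.11 ± 0.09. TNFSF13B, the cytokine BAFF that keeps B cells alive, rose by 2.62 ± 0.16, and SH3BGRL, a small adaptor-like protein, by 2.26 ± 0.09. SNX22, a sorting nexin, rose by 2.47 ± 0.42 with the widest error of these 15 genes: its controls ran from 0.56 to 2.45 CPM and its knockdown libraries from 4.70 to 18.9 CPM. OAS1, IFI44 and IFIT3 completed the group and are described with the interferon genes.

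The largest shared falls reached fewer genes and smaller sizes. DESI2, named for a desumoylating peptidase domain, fell by 1.85 ± 0.06. Its level was 49.4, 47.7 and 48.1 CPM in the controls, 14.4, 14.2 and 14.2 CPM with 13.6 and 12.6, 13.4 and 12.01 CPM with 13.8. The 3 groups were each tight, and both reagents left about the same amount. MS4A15, a membrane-spanning protein, fell by 2.26 ± 0.16 from 63.3, 60.8 and 49.98 CPM to 9.92, 6.55 and 10.3 CPM with 13.6 and to 21.8, 13.6 and 13.9 CPM with 13.8. MAPK4, an atypical MAP kinase, fell by 2.02 ± 0.06 from 67.0 to 77.4 CPM to 13.3 to 24.99 CPM.

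RPRD1B, which binds the tail of RNA polymerase II, fell by 1.29 ± 0.05 with no called gap between the reagents (−0.05, adjusted p = 0.56, edgeR). Its controls gave 80.3, 80.2 and 73.8 CPM, and the 6 knockdown libraries lay between 30.3 and 33.9 CPM. DCAF12, a substrate receptor of a ubiquitin ligase, fell by 1.40 ± 0.05, and PERM1, a muscle regulator induced by PPARGC1A, by 1.67 ± 0.17. UBAP1L fell by 2.19 ± 0.16, FAM178B by 1.52 ± 0.11, ARHGEF39 by 1.49 ± 0.07 and RPS6KA4, a kinase downstream of MAP kinases, by 1.34 ± 0.05. OCA2 and a set of replication and division genes, CDC25A, CDC45, TONSL and RRM2, made up the rest of the 15.

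**Figure D2:**
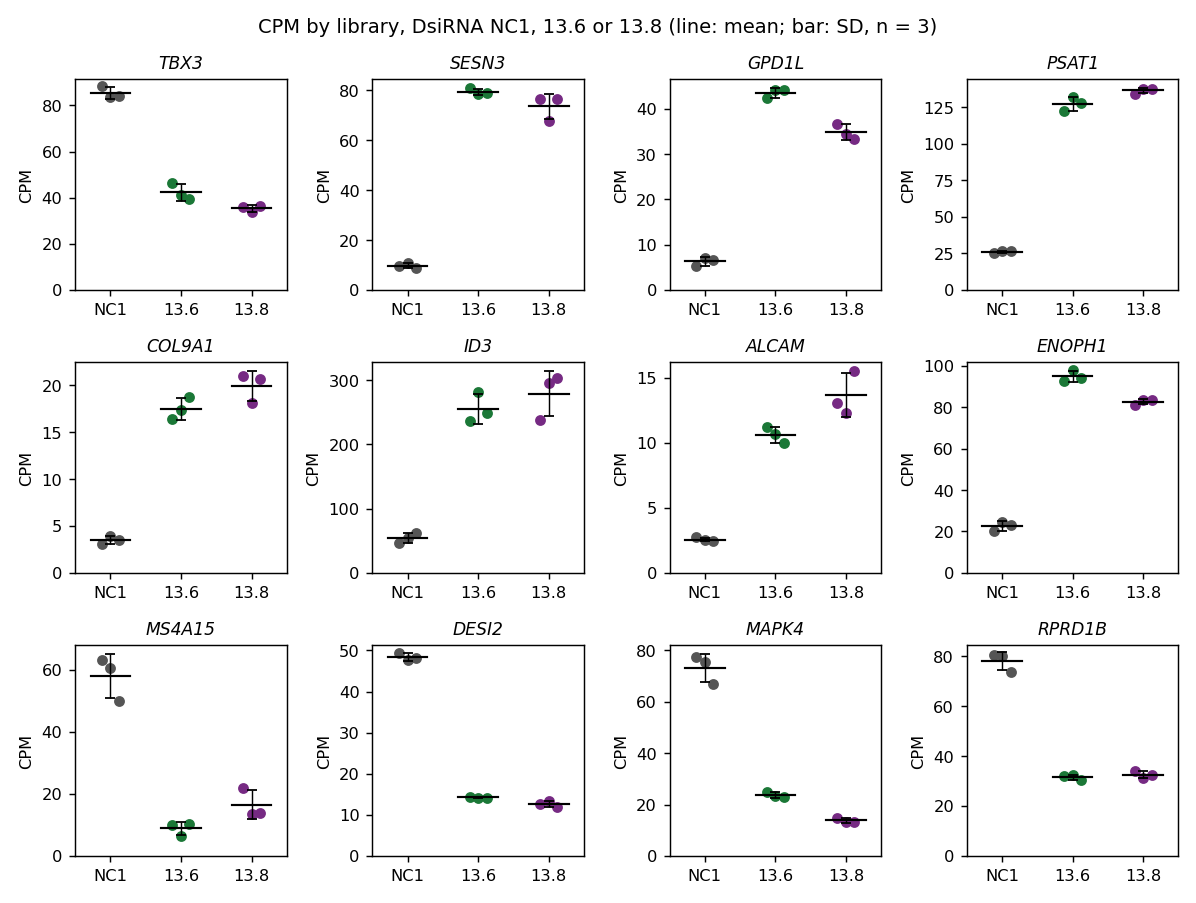
Level in CPM (vertical axes, from 0) of TBX3 and 11 of the genes with the largest shared change in each library of cells given DsiRNA NC1, 13.6 or 13.8; points are libraries, lines the mean and bars the SD of n = 3. TBX3 and the 4 genes of the bottom row are lower and the 7 others higher in every knockdown library than in any control.

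Most interferon-stimulated genes, the antiviral programme that cells switch on after sensing foreign RNA or interferon, rose. Of 52 tested, 32 rose (61.5%), 2 fell, 1 went in opposite directions and 17 were not shared, with a median pooled change of 0.79. IFIT3, which helps block viral RNA, stood at 9.07, 11.3 and 9.29 CPM in the controls, at 38.9, 41.7 and 37.5 CPM with 13.6 and at 51.5, 52.3 and 48.0 CPM with 13.8 (2.18 ± 0.08). OAS1, an antiviral enzyme that senses double-stranded RNA, rose from 1.26, 1.30 and 1.61 CPM to 9.77, 11.3 and 9.70 CPM with 13.6 and to 6.37, 8.29 and 7.40 CPM with 13.8 (2.65 ± 0.14). In both genes every knockdown library lay far above the highest control, with OAS1 higher under 13.6 and IFIT3 under 13.8.

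Other members depended far more on the reagent. IFIT1, which binds the ends of foreign RNA, rose to 7.78, 9.14 and 9.72 CPM with 13.6 but to 37.4, 48.0 and 42.1 CPM with 13.8, from 2.90, 4.24 and 3.42 CPM in the controls (pooled 2.47 ± 0.13, gap −2.26). IFI44 rose from 15, 37 and 27 reads to 100 to 151 reads with 13.6 and to 700 to 779 reads with 13.8 (pooled 3.37 ± 0.22). The helicase DDX60 rose by 1.76 ± 0.09. MX1, a dynamin-like antiviral GTPase, and PLSCR1, a scramblase, were the 2 that fell, by 0.95 ± 0.08 and 0.68 ± 0.06. Both were named after their values were seen. OAS3, a larger relative of OAS1, was at 0.57 with 13.6 and −0.35 with 13.8.

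Among sensors of foreign RNA and the machinery of antigen display there were rises and no shared falls. Of 22 RNA sensors and relays 9 rose (40.9%), 0 fell, 3 went in opposite directions and 10 were not shared (median 0.30). DDX58, now called RIGI, which detects viral RNA in the cytosol, rose by 1.53 ± 0.10 from 5.41, 5.69 and 4.55 CPM to between 13.7 and 17.0 CPM. IFIH1, the sensor MDA5 for long double-stranded RNA, rose by 0.74 ± 0.10 from 10.4 to 14.8 CPM to 18.4 to 22.5 CPM. TLR3, the endosomal sensor of double-stranded RNA, rose by 1.22 ± 0.16. DDX58, IFIH1 and TLR3 also belong to the interferon-stimulated list, so that the counts of these lists overlap. Of 20 genes of MHC class I and antigen processing 11 rose and 0 fell (median 0.46), among them the peptide transporter subunits TAP1 (0.77 ± 0.06) and TAP2 (0.90 ± 0.06), the chaperones CANX (0.98 ± 0.06) and PDIA3 (0.63 ± 0.05), and HLA-B (0.84 ± 0.06). TAP1 stood at 17.6 to 19.7 CPM in the controls and at 30.6 to 32.2 CPM in all 6 knockdown libraries. CANX and PDIA3 are counted again below, in the list of folding in the endoplasmic reticulum. HLA-B has close copies in the genome, and how the counting split their reads is not given in the sources used here. Of 23 chemokine and NF-kB genes 2 rose (8.7%) and 1 fell (4.35%), against 11.6% and 10.8% of all genes tested. Falls were 3 without control replicate 3 and 2 without 13.8 replicate 1. The rises were TNFSF13B and the monocyte attractant CCL2. CCL2 went from 14, 11 and 14 reads to 18, 34 and 54 reads with 13.6 and to 745, 1007 and 838 reads with 13.8. CXCL8, the neutrophil attractant, was called in opposite directions (−1.58 with 13.6, 2.36 with 13.8).

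**Figure D3:**
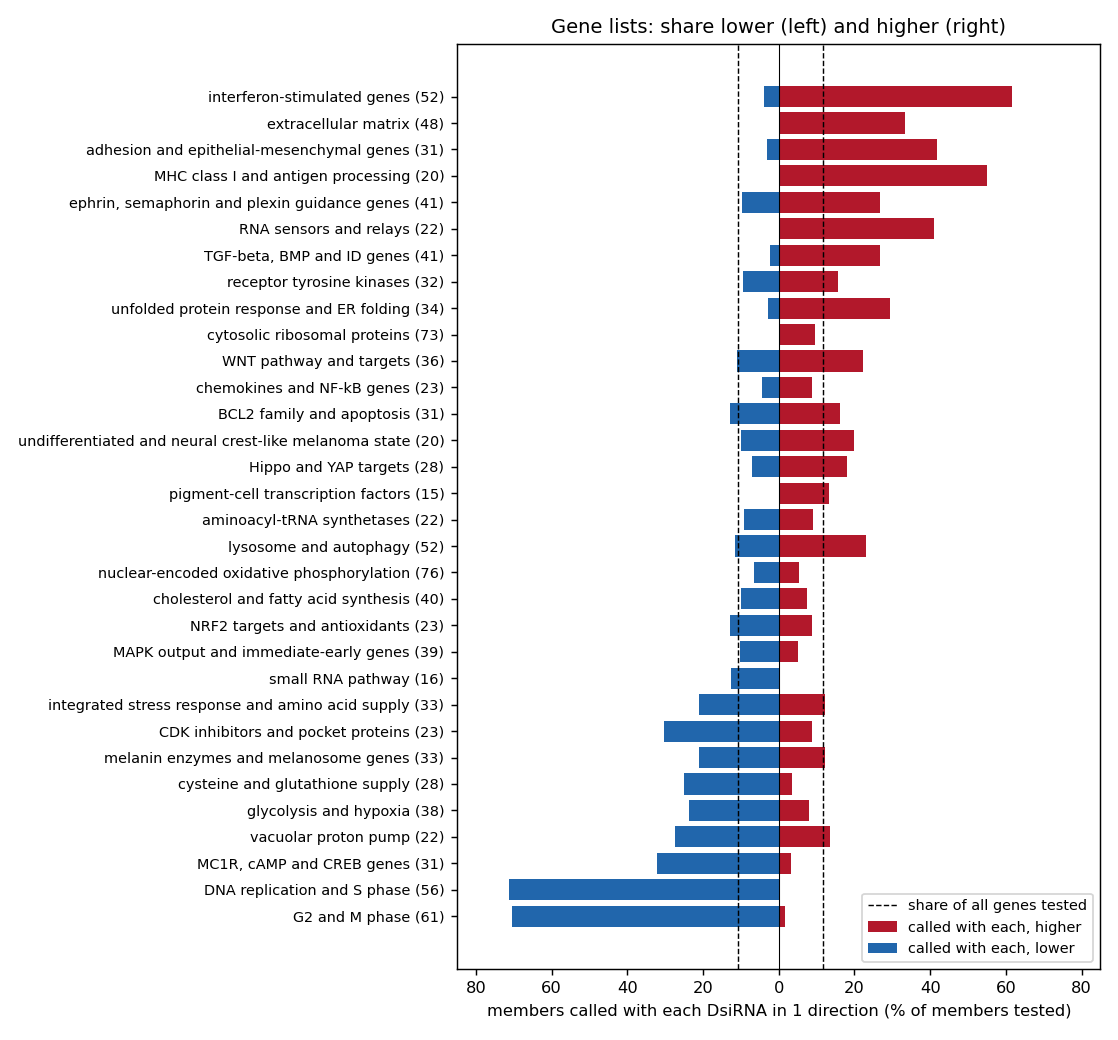
Share of the members tested of 32 gene lists (number tested in brackets; lists with at least 15 tested) that were called with each DsiRNA lower (blue, left) or higher (red, right), on a percent axis. Dashed lines mark the shares over all genes tested, 10.8% lower and 11.6% higher; interferon and antigen-processing genes reach 61.5% and 55.0% higher, and S-phase and G2 and M-phase genes 71.4% and 70.5% lower.

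Most genes of the cell cycle that were listed fell. Of 56 genes of DNA replication and S phase 40 fell (71.4%), 0 rose and 16 were not shared, with a median of −0.67. Of 61 genes of G2 and M phase 43 fell (70.5%), 1 rose, 1 went in opposite directions and 16 were not shared, with a median of −0.83. RRM2, the ribonucleotide reductase subunit that supplies DNA building blocks, fell by 1.18 ± 0.07, and the 2 reagents did so to a like degree. It went from 100.2, 117 and 102 CPM to 45.3, 49.6 and 49.95 CPM under 13.6 and to 49.0, 41.4 and 46.4 CPM under 13.8. CDC45, part of the replicative helicase, fell by 1.31 ± 0.08 and TONSL, which protects stalled replication forks, by 1.44 ± 0.07. The licensing factor CDC6 (−0.83 ± 0.05), the chromatin assembly subunit CHAF1A (−0.93 ± 0.05), the flap nuclease FEN1 (−0.94 ± 0.05) and the polymerase subunit POLA2 (−0.93 ± 0.05) fell by similar amounts.

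Mitotic genes fell with both reagents but more with 13.8. CDC25A, the phosphatase that activates CDK2, fell from 80.9, 75.2 and 76.1 CPM to 35.2, 37.4 and 35.9 CPM with 13.6 and to 21.7, 21.98 and 23.3 CPM with 13.8 (pooled −1.45 ± 0.05). PLK1, the kinase that drives mitotic entry, fell from 170.2, 161 and 155 CPM to 101, 111 and 105 CPM with 13.6 and to 27.1, 27.6 and 24.1 CPM with 13.8 (pooled −1.62 ± 0.06, gap 2.00). The groups did not overlap in either gene, and the step between the reagents was wider for PLK1. Cyclin A2, CCNA2 (−1.11 ± 0.06), GTSE1 (−1.24 ± 0.06) and the spindle midzone protein PRC1 (−1.14 ± 0.06) fell too. HMMR, a spindle protein, was the riser (0.49 ± 0.06), a call lost without 13.8 replicate 1 (0.46), and it was named after its values were seen. TOP2A, the DNA topoisomerase of dividing cells, was at 0.25 with 13.6 and −1.25 with 13.8.

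Of 23 CDK inhibitors, pocket proteins and their partners 2 rose (8.7%) and 7 fell (30.4%), against 11.6% and 10.8% of all genes tested. The count of rises was 1 without control replicate 1 or 2, 13.6 replicate 1 or 3 or 13.8 replicate 2 or 3. CDKN2B, the inhibitor p15 and a reported target of TBX3 repression, rose by 1.24 ± 0.10. It stood at 56.3, 37.8 and 47.5 CPM in the controls, at 91.0, 90.3 and 80.1 CPM with 13.6 and at 133, 147 and 149 CPM with 13.8, so that the order was the same in all libraries. CDK2, the S-phase kinase (−0.86 ± 0.05), E2F8 (−0.87 ± 0.09) and TFDP1, a partner of E2F factors (−0.70 ± 0.06), fell, as did, from the S-phase list, E2F1, the activator of S-phase genes (−1.004 ± 0.06). CCND1, cyclin D1, was called in opposite directions (0.41 with 13.6, −0.40 with 13.8). Of 6 reported targets of TBX3 repression 2 rose, CDKN2B and the adhesion gene NCAM1 (0.49 ± 0.09), and CDKN1A fell. CDKN1A, the inhibitor p21, rested on few reads: 36, 11 and 16 in the controls, 6, 5 and 11 under 13.6, and 1, 3 and 2 under 13.8. Leaving out control replicate 1 (−2.02), 13.6 replicate 1 (−2.51) or 13.6 replicate 2 (−2.43) ended its shared call. CDKN2A, which encodes p16 and ARF, was called in the pooled comparison (0.66 ± 0.17) with values of 0.32 for 13.6 and 1.01 for 13.8, and CDH1, E-cadherin, was not (0.31 ± 0.17, adjusted p = 0.16, edgeR).

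**Figure D4:**
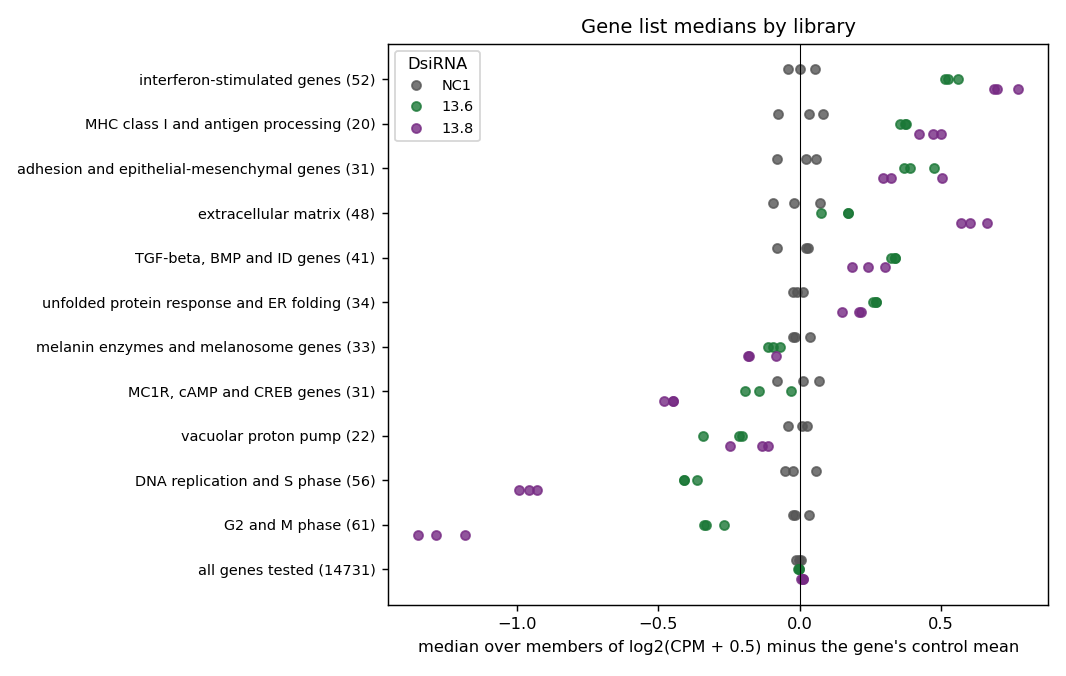
Median over the members of 11 gene lists, and over all 14731 genes, of log2(CPM + 0.5) minus the gene's control mean (horizontal axis), with 1 point a library and colours for the DsiRNA. For the interferon, MHC class I, S-phase and G2 and M-phase lists the 6 knockdown libraries lie to 1 side of the 3 controls; both cell-cycle lists lie lower with 13.8 (−0.93 to −1.35) than with 13.6 (−0.27 to −0.41).

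Melanin and melanosome genes moved in both directions. Of 33 tested 4 rose (12.1%), 7 fell (21.2%), 3 went in opposite directions (9.09%) and 19 were not shared, with a median of −0.18. Over all genes tested the shares were 11.6%, 10.8% and 9.01%, so that rises and opposite calls were near the background. TYR encodes tyrosinase, whose first step sets the pace of melanin synthesis, and it rose by 0.96 ± 0.06. Its level was 373, 400 and 366 CPM in the controls, 796, 810 and 820 CPM with 13.6 and 729, 658 and 648 CPM with 13.8. BLOC1S6, a subunit of the complex that carries cargo to melanosomes, rose by 1.22 ± 0.05 from 42.0 to 43.2 CPM to 92.7 to 104.1 CPM.

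OCA2, which controls melanosome pH, fell by 1.47 ± 0.10, one of the largest shared falls. It went from 68.1, 72.8 and 61.0 CPM to 23.4, 21.0 and 26.5 CPM under 13.6 and to 29.7, 21.3 and 23.6 CPM under 13.8, with no called gap between the reagents (−0.07, adjusted p = 0.61, edgeR). RAB38, a GTPase that delivers tyrosinase to melanosomes, fell by 1.34 ± 0.06, from 510, 536 and 600 CPM to 299, 305 and 320 CPM with 13.6 and to 156, 148 and 152 CPM with 13.8. CTNS, the cystine exporter of lysosomes and melanosomes, fell by 0.68 ± 0.06. MLANA, a melanosome antigen, fell by 0.23 ± 0.06, and leaving out control replicate 2 (−0.23), control replicate 3 (−0.19), 13.6 replicate 1 (−0.23) or 13.6 replicate 2 (−0.23) ended its shared call. PMEL, which forms the melanosome fibrils, was not called in the pooled comparison (−0.06 ± 0.07).

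Agreement was absent for the other tyrosinase family members. TYRP1 stood at 3457, 3615 and 3740 CPM in the controls, at 2687, 2644 and 2752 CPM with 13.6 and at 8001, 7756 and 7737 CPM with 13.8. Each reagent was thus clear of the controls on the other side, and the pooled value of 0.35 ± 0.06 describes neither. DCT was at −0.49 with 13.6 and 0.64 with 13.8, and MFSD12, which imports cysteine into melanosomes for pheomelanin, at −2.17 and 0.38. Of 15 pigment-cell transcription factors 2 rose, SOX5 (0.62 ± 0.08) and USF1 (0.41 ± 0.07), 0 fell and 5 went in opposite directions. These include SOX10 (0.33 and −0.35), SNAI2 (0.96 and −0.27), LEF1 (0.43 and −0.58) and TFAP2A (−0.43 and 0.62). MITF was called in the pooled comparison (−0.51 ± 0.09) but stood at −0.04 with 13.6 and −0.97 with 13.8, and PAX3, an activator of MITF, was not called (0.10 ± 0.06).

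MC1R itself rose while some genes of the cAMP route downstream of it fell. MC1R stood at 22.7, 27.3 and 22.8 CPM in the controls, at 30.7, 33.0 and 31.1 CPM with 13.6 and at 49.6, 52.6 and 56.6 CPM with 13.8 (0.76 ± 0.07). Of the 31 genes of this list it was the only one that rose, and 10 fell, 32.3%, with a pooled median of −0.27. Another 5 went in opposite directions and 15 were not shared. The list's median was −0.14 with 13.6 and −0.48 with 13.8, and the highest 13.6 library (−0.03) lay above the lowest control (−0.081). The kinase subunits PRKACB (−0.94 ± 0.06) and PRKAR1A (−0.62 ± 0.05), the phosphodiesterase PDE3A (−0.59 ± 0.05) and NR4A3, a nuclear receptor induced by cAMP (−1.48 ± 0.07), were among those that fell. PPARGC1A, the coactivator PGC-1alpha that MITF drives in melanoma, fell by 0.87 ± 0.07 from 84.0, 99.8 and 82.2 CPM to 56.6, 51.8 and 53.4 CPM with 13.6 and to 46.4, 42.5 and 41.4 CPM with 13.8. PRKAR1A fell by a like amount with each reagent, while NR4A3 fell mainly with 13.8 (−0.49 and −2.48).

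**Figure D5:**
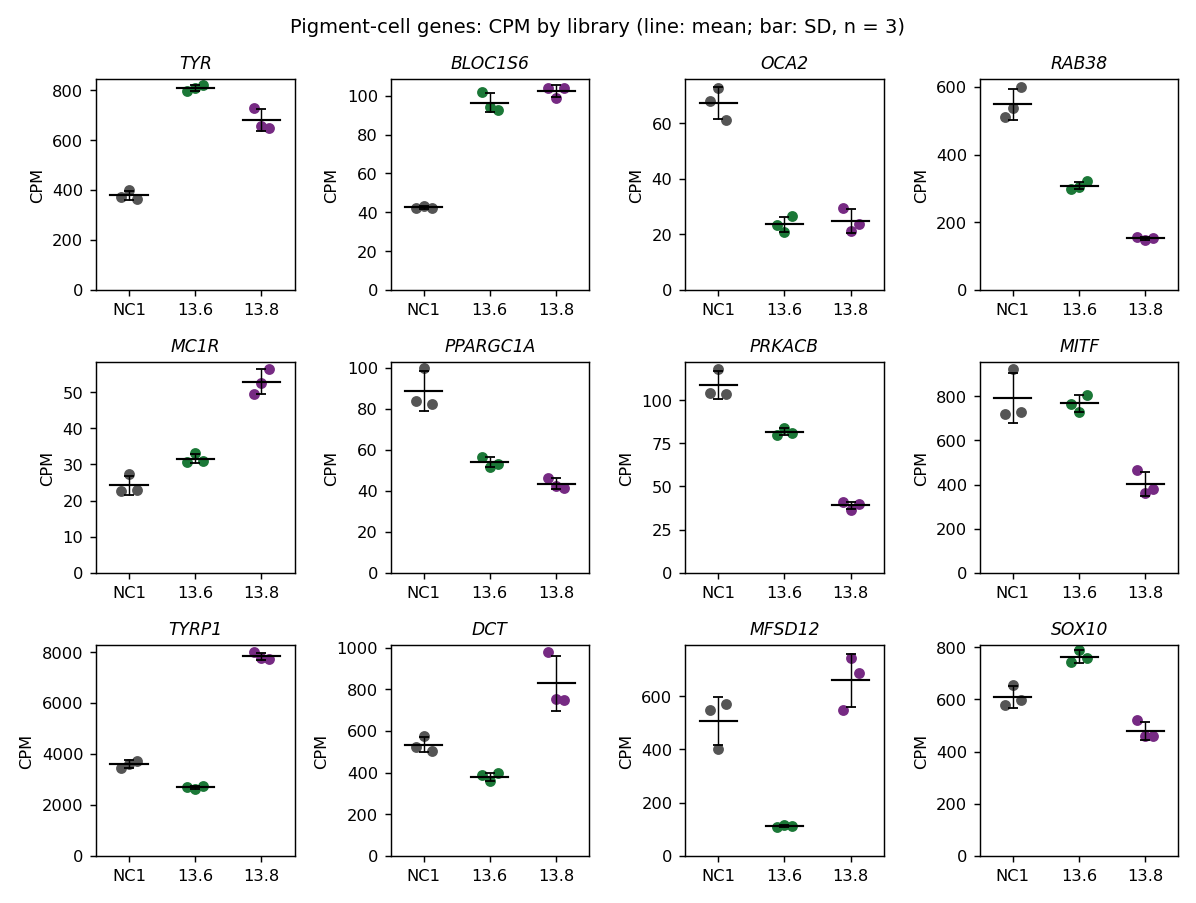
Level in CPM (vertical axes, from 0) of 12 pigment-cell and cAMP genes in each library of cells given DsiRNA NC1, 13.6 or 13.8; points are libraries, lines the mean and bars the SD of n = 3. TYR, BLOC1S6 and MC1R are higher and OCA2, RAB38, PPARGC1A and PRKACB lower in all 6 knockdown libraries than in the controls, while TYRP1, DCT and SOX10 move to opposite sides with the 2 reagents.

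Cysteine feeds both pheomelanin and glutathione, and its supply genes were lower more often than higher. Of 28 tested 1 rose, 7 fell and 6 went in opposite directions (pooled median −0.19). The list's median was −0.32 with 13.6 but 0.02 with 13.8. By library it ran from −0.177 to 0.101 with 13.8, across the control range of −0.068 to 0.024. CTH, which makes cysteine from methionine sulphur, fell by 0.80 ± 0.05 from 120 to 124 CPM to 59.2, 65.0 and 62.4 CPM with 13.6 and to 78.4, 78.8 and 79.8 CPM with 13.8. GSR, which recycles glutathione (−0.67 ± 0.05), and OPLAH, an enzyme of glutathione turnover (−0.83 ± 0.07) fell mainly with 13.6, and GCLC, the enzyme that limits glutathione synthesis, rose by 0.83 ± 0.07. CHAC1, which degrades glutathione, was at −0.69 with 13.6 and 0.54 with 13.8. Among 23 NRF2 targets and antioxidants 2 rose, ABCC4 among them (0.56 ± 0.09), and 3 fell, including TXNRD1 (−0.45 ± 0.05) and SOD2 (−0.62 ± 0.06), shares near the 11.6% and 10.8% of all genes; rises were 1 without control replicate 1 or 13.6 replicate 3.

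Among 33 genes of amino acid supply and the integrated stress response 4 rose (12.1%) and 7 fell (21.2%), against 11.6% and 10.8% of all genes tested. PSAT1 and SESN3, described above, belong to the rises. ATF3, a stress-induced transcription factor, fell by 0.99 ± 0.05 from 84.4, 76.4 and 83.4 CPM to 43.9, 44.2 and 46.1 CPM with 13.6 and to 36.4, 38.7 and 37.7 CPM with 13.8. PCK2 (−0.61 ± 0.06) and PPP1R15A, which helps end the response (−0.68 ± 0.07), fell as well. ASNS, asparagine synthetase, was called in opposite directions (−0.81 and 0.37). Among 34 genes of the unfolded protein response and folding in the endoplasmic reticulum 10 rose (29.4%) and 1 fell (median 0.19). HSP90B1, the chaperone GRP94, rose by 0.83 ± 0.05 from 657 to 695 CPM to 1308 to 1356 CPM with 13.6 and 1033 to 1086 CPM with 13.8, and CRELD2 (0.82 ± 0.08) and PDIA4 (0.61 ± 0.06) rose too. PDIA6 was at 0.80 with 13.6 and −1.05 with 13.8.

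Among adhesion, matrix and guidance genes shared rises outnumbered shared falls, while most members were in neither group. Of 31 adhesion and epithelial-mesenchymal genes 13 rose (41.9%) and 1 fell (median 0.49), and of 48 extracellular matrix genes 16 rose (33.3%), 0 fell and 6 went in opposite directions (pooled median 0.50). The matrix median was 0.14 with 13.6 and 0.80 with 13.8, and the lowest 13.6 library (0.075) was level with the highest control (0.071). ITGB1, the common partner of matrix-binding integrins, rose by 0.94 ± 0.06 from 134, 124 and 119 CPM to 262, 244 and 260 CPM with 13.6 and to 235, 226 and 223 CPM with 13.8. CDH19, a cadherin of the neural crest lineage (0.73 ± 0.06), and the laminin receptor ITGA6 (0.72 ± 0.07) rose, and ITGA7, another laminin receptor, fell (−0.84 ± 0.07). The laminin chains LAMB1 and LAMA4 rose by 1.198 ± 0.06 and 1.45 ± 0.08. LAMB1 went from 73.2, 65.9 and 63.5 CPM to 124, 119 and 113 CPM with 13.6 and to 213, 198 and 196 CPM with 13.8. MMP14, a membrane protease that cuts matrix, rose by 0.72 ± 0.05.

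Some matrix genes are also markers of fibroblasts. Of 8 fibroblast markers tested, of 11 listed, POSTN and THY1 rose and 6 were not shared. The median over the 8 was −0.08 with 13.6 and 2.22 with 13.8. By library it ran from −0.074 to 0.058 with 13.6, against −0.04 to 0.095 in the controls. POSTN, a matrix protein of fibroblasts, had 2, 2 and 5 reads in the controls, 19, 24 and 22 with 13.6 and 244, 191 and 173 with 13.8, and THY1, a surface protein, 6, 20 and 22, then 109, 134 and 92, then 196, 202 and 159 reads. The 11 markers summed to 5.79 to 7.07 CPM in the controls, 7.43 to 9.18 CPM with 13.6 and 28.4 to 29.6 CPM with 13.8, and their part in the adhesion and matrix results was not tested. Markers of melanoma cells summed to 13400 to 15400, 13800 to 15000 and 17400 to 18200 CPM in the same order. That sum holds TYRP1, described above as far higher with 13.8. Among these 8 melanoma markers 2 rose, 1 fell and 3 went in opposite directions. Of the 8 markers of keratinocytes, leukocytes and endothelium that were tested, 0 were shared in either direction. Their sums in the controls were 41.5 to 46.7 CPM for keratinocytes, where KRT5 had no reads in any library, 73.6 to 79.3 CPM for leukocytes (77.3 to 83.2 CPM with 13.8, and up to 106.0 CPM with 13.6) and 1.04 to 1.67 CPM for endothelium.

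In the TGF-beta, BMP and ID list 11 of 41 genes rose (26.8%), 1 fell and 8 went in opposite directions (median 0.29), with 7 rises at an adjusted p under 0.01. Beside ID1 and ID3, the BMP signal transducer SMAD5 rose by 1.29 ± 0.07 from 21.4 ± 1.1 CPM (SD, n = 3) to 68.4 ± 2.8 CPM with 13.6 and 40.1 ± 3.4 CPM with 13.8, and SMAD6, an inhibitor induced by BMP, by 1.37 ± 0.14. INHBE, an activin subunit, was called in opposite directions (−1.64 and 2.12). Of 41 ephrin, semaphorin, plexin and other guidance genes 11 rose (26.8%) and 4 fell, with a median of 0.36. The ephrin EFNA1 (1.59 ± 0.09), the secreted semaphorins SEMA3A (1.55 ± 0.06) and SEMA3D (1.26 ± 0.15), NTN1, netrin 1 (1.06 ± 0.08), and ROBO2, a receptor for SLIT proteins (1.08 ± 0.10), rose. The count of guidance genes that fell was 2 without control replicate 1 or 2 or 13.8 replicate 2 or 3.

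Receptor, MAP kinase, WNT, Hippo and melanoma-state lists are set beside all genes tested, where 11.6% rose, 10.8% fell and 9.01% went in opposite directions. Of 32 receptor tyrosine kinases 5 rose (15.6%), 3 fell (9.38%) and 3 went in opposite directions (9.38%). ERBB3 (0.90 ± 0.08), ALK (1.68 ± 0.31, from 0.60 ± 0.38 CPM, SD, n = 3, in the controls) and PTK7 (0.62 ± 0.06) rose, and ERBB2 (−0.97 ± 0.09) and IGF1R (−0.50 ± 0.09) fell. The count of rises was 3 without control replicate 2. In the list of MAP kinase output 2 of 39 rose (5.13%), 4 fell (10.3%) and 8 went in opposite directions (20.5%). The median was −0.11, and falls were 2 without control replicate 1 or 13.6 replicate 3. ETV1, one of the 2 rises, is an ETS factor downstream of MAP kinase signalling and a known melanoma gene; it rose by 1.46 ± 0.05 from 49.5 ± 1.0 CPM to 113 ± 3.6 CPM with 13.6 and 163 ± 5.2 CPM with 13.8 (SD, n = 3). Of 36 WNT genes 8 rose (22.2%), 4 fell (11.1%) and 6 went in opposite directions (16.7%). The receptors FZD7 (0.89 ± 0.05) and FZD2 (0.96 ± 0.11) were among the rises. The nuclear factor TCF7 (−0.64 ± 0.08) and the relay DVL2 (−0.48 ± 0.05) were among the falls. The count of WNT rises was 4 at an adjusted p under 0.01. Of 28 Hippo genes and YAP targets 5 rose (17.9%), 2 fell (7.14%) and 6 went in opposite directions (21.4%). The list's median was −0.18 with 13.6 and 0.46 with 13.8, and rises were 3 without control replicate 2. YAP1, the effector of the pathway, rose by 0.83 ± 0.07 from 115 to 140 CPM to 207 to 239 CPM, with a gap of 0.01 between the reagents. Of 20 genes of the undifferentiated, neural crest-like melanoma state 4 rose and 2 fell, with medians of −0.28 with 13.6 and 0.76 with 13.8; rises were 2 without 13.6 replicate 3.

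Among metabolic genes, shared falls stood above the background for glycolysis and hypoxia. Of 38 glycolysis and hypoxia genes 9 fell (23.7%) and 3 rose (median −0.21). LDHB, a lactate dehydrogenase chain, rose by 1.02 ± 0.06 from 264, 310 and 306 CPM to 579, 593 and 626 CPM with 13.6 and to 615, 573 and 573 CPM with 13.8, and PGAM1, a glycolytic mutase, by 1.42 ± 0.08. Both have processed copies in the genome that could share reads. ADM (−0.80 ± 0.07) and EGLN1 (−0.78 ± 0.10), both induced by hypoxia, fell. In lipid synthesis 3 of 40 rose, 4 fell and 7 (17.5%) went in opposite directions. ACSL4, which activates polyunsaturated fatty acids and favours ferroptosis, rose by 1.91 ± 0.06 from 18.9 to 20.8 CPM to 61.6 to 86.3 CPM, SC5D of cholesterol synthesis rose by 1.54 ± 0.06, and the desaturase FADS2 (−1.25 ± 0.10) and ACLY, which makes acetyl-CoA (−0.72 ± 0.06), fell.

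Of 22 subunits and partners of the vacuolar proton pump, which acidifies lysosomes and melanosomes, 6 fell (27.3%), 3 rose and 3 went in opposite directions (median −0.26). ATP6V1E1 fell by 1.73 ± 0.05, mostly with 13.6 (−2.95 and −0.50), ATP6V1C1 by 0.76 ± 0.05 and ATP6V0C by 0.54 ± 0.05, and ATP6AP2 rose by 0.40 ± 0.05. Of 52 lysosome and autophagy genes 12 rose (23.1%) and 6 fell. ATG5, needed to build autophagosomes, rose by 1.05 ± 0.06 and the lysosomal receptor SCARB2 by 1.09 ± 0.05, and MAP1LC3B, the autophagosome marker LC3B, fell by 0.67 ± 0.06. In the respiratory chain 4 of 76 nuclear genes rose and 5 fell, shares below those of all genes. ATP5F1, now called ATP5PB, of the ATP synthase (1.35 ± 0.06) and NDUFA5 of complex I (0.92 ± 0.07) rose, and SDHA of complex II fell (−0.80 ± 0.06). The counts in this list moved with single libraries: rises were 8 without control replicate 3 and 2 without control replicate 1 or 2, 13.6 replicate 2 or 3 or 13.8 replicate 2, and falls were 3 without control replicate 3 and 2 without 13.6 replicate 1 or 2. Of 73 cytosolic ribosomal protein genes 7 rose (9.59%) and 0 fell, against 11.6% and 10.8% of all genes tested. The list's median in control replicate 3 lay 0.25 above the control mean, against −0.14 and −0.11 in control replicates 1 and 2. Without control replicate 3 the count of rises was 34. Without control replicate 1 or 2 or 13.6 replicate 3 the count was 4. Of 13 genes encoded in the mitochondrial genome 3 rose (23.1%) and 0 fell, and 7 rose without control replicate 2. Of 22 aminoacyl-tRNA synthetases, which charge tRNAs for translation, 2 rose (9.09%) and 2 fell (9.09%), near the shares of all genes tested. Without control replicate 2, 13.6 replicate 1 or 3 or 13.8 replicate 1 the count of synthetase rises was 1.

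ZMAT3, an RNA-binding protein, rose by 1.39 ± 0.08, from 7.73, 7.10 and 7.75 CPM to 21.2, 18.2 and 19.8 CPM with 13.6 and to 20.2, 20.8 and 18.5 CPM with 13.8. GADD45A, a stress gene induced by DNA damage, fell by 1.09 ± 0.05 from 200 to 223 CPM to 92.7 to 102 CPM, and the cyclin CCNG1 rose by 0.32 ± 0.05. In ZMAT3 and GADD45A the knockdown and control libraries did not overlap. Of 31 genes of the BCL2 family and apoptosis 5 rose (16.1%) and 4 fell (12.9%), shares near the 11.6% and 10.8% of all genes tested. The caspase inhibitor XIAP (0.70 ± 0.06) and BMF (0.61 ± 0.08) were among the rises and PMAIP1, the protein NOXA (−0.54 ± 0.07), among the falls. Rises were 8 without control replicate 3, and falls 2 without 13.6 replicate 3. Of 16 genes of the small RNA pathway, which processes microRNAs and the DsiRNAs themselves, 0 rose and 2 fell (12.5%, near the 10.8% of all genes tested). Another 3 went in opposite directions (18.8%, against 9.01% of all genes tested). The falls were DROSHA of the nuclear microprocessor, by 0.61 ± 0.07, and its partner DGCR8, by 0.54 ± 0.07.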

How the data were processed

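RNA was measured in 9 libraries of 501mel cells, 3 for each DsiRNA. The deposited count table holds whole reads per gene symbol; the authors' processing notes name cutadapt, FastQC, STAR, HTSeq and the build hg19 without roles. Tool versions, the gene annotation and whether reads were counted by strand: not given in the sources used here. A second deposited table, on the log2 scale, was made by the authors with a step not stated (DESeq2 is named without a role in the submitters' processing notes): by its values it holds log2 of the size-factor scaled count plus 1, which returned the counts of 25354 genes to within 0.00204 reads, and it was used for that check only. Per the labels' protocols the library kit keeps the strand.

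Of 25398 entries 16 identical repeats were dropped, leaving 25382, of which 3249 had no reads. Names turned into dates stand on 28 entries, which hold 0.2% of the counts. The filter filterByExpr of edgeR (minimum count 10) left 14731 genes with 99.97% of the counts. Counts were fitted with edgeR 4.0.16 (R 4.3.3; TMM, robust quasi-likelihood, 1 mean per group, 6 residual degrees of freedom), with each DsiRNA weighted 50% against control. Tests are two-sided, with Benjamini-Hochberg adjustment over all genes tested. The pipeline was tested on simulated data. CPM have no pseudocount; the list medians by library use 0.5 CPM. The depth of each library, 38105026 reads or more, sets counting error, and p-values carry the spread between libraries.

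Samples were grouped by the DsiRNA in their labels. Alternatives were DESeq2 1.42.0, limma-voom (limma 3.58.1), DESeq2 size factors, library totals, other filters, a threshold of 0.01, a 1.5-fold minimum, 1 mean over all knockdown libraries, a replicate block and leaving out each library.

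The members and gene lists were chosen with earlier results of these data known. Genes were named by rule: TBX3; the 15 rises and 15 falls with the largest smaller single change (mean of at least 5 CPM, groups not overlapping); in each list up to 5 shared genes with the smallest adjusted p and up to 3 called in opposite directions with the largest gap; a set of genes picked for their known roles; and 2 genes on each side of the threshold. Exceptions are said where they occur. Clone names, pseudogenes and date names were skipped. Some genes and gene lists are not reported here.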

Additional observations from a re-analysis of the deposited data

Results flagged for a closer look

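The genes below differed between the 2 reagents by at least 1 on the log2 scale at an adjusted p under 0.05 in edgeR's comparison of 13.6 with 13.8; 8995 of the 14731 genes tested (61.1%) passed that p at any size, so that a gap was common. Groups of 3 libraries were not searched for outlying samples. Each value is the log2 level with 13.6 minus that with 13.8, which does not involve the controls.

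Among genes that moved the same way with both reagents, the level was lower with 13.6 for the interferon-stimulated genes IFI44 (−2.36) and IFIT1 (−2.26), the chemokine CCL2 (−4.44), the matrix gene POSTN (−3.06), the guidance genes SEMA3A (−1.71), ROBO2 (−1.37) and EFNA1 (−1.05), the receptors ERBB3 (−1.12) and ALK (−1.01), UBAP1L (−1.01) and the proton pump subunit ATP6V1E1 (−2.44). It was higher with 13.6 for the mitotic genes PLK1 (2.00), PRC1 (1.75) and GTSE1 (1.04), for CDKN1A (1.97), for the cAMP genes NR4A3 (1.99) and PRKACB (1.07) and for RAB38 (1.02).

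Among genes called in opposite directions, the level was lower with 13.6 for CXCL8 (−3.94), INHBE (−3.76), MFSD12 (−2.55), TYRP1 (−1.54), CHAC1 (−1.23), ASNS (−1.17), DCT (−1.12) and TFAP2A (−1.05). It was higher with 13.6 for PDIA6 (1.85), TOP2A (1.497), SNAI2 (1.23) and LEF1 (1.01).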

How the results depend on the processing

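An adjusted p under 0.01 left 1052 shared falls and 728 genes called in opposite directions. With a minimum of 1.5-fold, 11 S-phase and 16 G2 and M-phase falls and 6 rises each in the antigen-processing, adhesion and matrix lists were left. That minimum left 1374 pooled rises and 1070 falls, 624 shared rises and 341 falls, and 230 genes in opposite directions. With 1 mean over all 6 knockdown libraries, so that the gap between the reagents counts as spread, 1381 pooled rises and 1129 falls were called, and PDIA6 turned sign (0.16, adjusted p = 0.865, edgeR), against −0.12 in the weighted comparison. Leaving out 1 library gave 3070 to 3476 pooled rises, 3553 to 4014 pooled falls, 1485 to 1773 shared rises, 1377 to 1724 shared falls, 1060 to 1350 genes in opposite directions and a TBX3 change of −1.18 to −1.12. Of the 3300 shared calls DESeq2 kept 3286, limma-voom 3237, library totals 3141 and a threshold of 0.01 kept 2225, and 2269 held without any 1 library. Of the 142 shared genes among those named, 137 held without any 1 library. Many of them were named for a small adjusted p or a large, separated change, so that this share was partly set by the choice.

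Whether the replicate numbers pair the libraries was not settled. Deviations of same-numbered libraries correlated between −0.179 and 0.187, most of them positive, and those of other numbers between −0.248 and 0.187. Not every library correlated best with its own number. The replicate block raised each count of calls. It gave 1894 shared rises, 1811 shared falls, 3753 pooled rises, 4280 pooled falls and 1600 genes in opposite directions, and 14 ribosomal protein genes rose in place of 7. Genes with few reads, such as CDKN1A, POSTN and TBX15, have wide errors at this depth.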
